A study of Homo sapiens with 10 samples.

Results

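KDM5A, KDM5B and KDM5C, 3 paralogous genes for histone demethylases, were followed across 4 groups of HCT116 cells, a human colorectal carcinoma line. They were chosen by symbol and are 3 of the 57993 gene symbols in the deposited tables, and all 3 were among the 17779 symbols that passed the filter on low values. The series compared KDM5A-/- cells given a plasmid for a mutant KDM5A (2 libraries), KDM5A-/- cells given a plasmid for wild-type KDM5A (3 libraries), KDM5A-/- cells given an empty vector (3 libraries) and parental cells given the empty vector (2 libraries). All 4 groups were transfected and sorted for GFP after 24 hours before RNA was taken from the sorted cells. The knockout line and its parent were bought from Horizon, and only the knockout line was grown with G418, at 300 ug/mL, so genotype, line and G418 cannot be told apart in comparisons with the parental cells. The labels name neither the KDM5A mutation, nor the lesion of the knockout, nor the promoter or the extent of the KDM5A insert in the plasmids. They do not say how many clones the knockout line stands for. Nor do they give separate cultures for the libraries of a group, so a p-value here covers the spread among these libraries, and that spread may be technical.

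KDM5 proteins are dioxygenases with a Jumonji catalytic domain that remove methyl groups from lysine 4 of histone H3, a mark of active promoters. They are best known as corepressors in complexes with histone deacetylases, and they are studied in cancer for their part in cell proliferation, differentiation and drug tolerance. KDM5A was first described as a protein that binds the retinoblastoma protein, KDM5B is often abundant in breast tumours, and KDM5C lies on the X chromosome and is mutated in a form of intellectual disability. The title of the series concerns the methylation of KDM5A by the lysine methyltransferase SMYD2.

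The promoters of the 3 genes are shown because KDM5B differed with the KDM5A plasmids and KDM5A has been described to bind the letters CCGCCC through its ARID domain. The same letters are also the core of the GC box bound by SP1. Each line gives 250 bases before and 50 after the RefSeq start (GRCh38.p14, minus strand, 5′ to 3′), with CCGCCC on either strand in capitals (GGGCGG on the strand shown when the match lies on the other).
KDM5A, chr12:389271-389570: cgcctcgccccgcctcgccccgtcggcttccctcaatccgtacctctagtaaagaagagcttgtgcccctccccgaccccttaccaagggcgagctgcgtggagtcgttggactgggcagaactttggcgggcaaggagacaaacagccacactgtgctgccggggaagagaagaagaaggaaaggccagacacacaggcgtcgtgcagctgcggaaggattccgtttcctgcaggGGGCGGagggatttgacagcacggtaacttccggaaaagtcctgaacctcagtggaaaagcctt
KDM5B, chr1:202808372-202808671: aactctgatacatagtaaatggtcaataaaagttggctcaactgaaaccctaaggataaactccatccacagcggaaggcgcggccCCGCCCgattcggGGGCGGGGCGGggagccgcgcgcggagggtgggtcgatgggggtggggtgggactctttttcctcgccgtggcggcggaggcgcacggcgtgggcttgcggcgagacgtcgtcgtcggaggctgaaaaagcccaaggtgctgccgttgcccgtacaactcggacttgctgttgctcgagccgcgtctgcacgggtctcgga
KDM5C, chrX:53225158-53225457: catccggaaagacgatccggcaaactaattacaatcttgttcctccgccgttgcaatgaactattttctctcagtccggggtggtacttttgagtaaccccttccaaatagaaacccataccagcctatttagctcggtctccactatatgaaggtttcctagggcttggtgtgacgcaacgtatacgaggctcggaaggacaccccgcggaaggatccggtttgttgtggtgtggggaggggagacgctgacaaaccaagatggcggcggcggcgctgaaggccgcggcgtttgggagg
The KDM5A window held 1 match, 14 to 9 bases before the start. The KDM5B window held 3 matches, of which the 2 nearest the start share a base, and the KDM5C window held none. At least 1 match stood in 44.95% of the 35116 RefSeq promoter windows of this length, and at least 3 in 15.8%. The windows held 20 (KDM5A), 34 (KDM5B) and 22 (KDM5C) CpG dinucleotides, against a median of 14 over all windows, and a count of 34 or more was found in 15.6% of them. The RefSeq starts used here are not the ends of the loci given below. The whole KDM5B window lies inside the KDM5B locus, which ends at 202809470. Windows at other starts were not counted and could hold other numbers of matches and CpG. These matches describe letters and not binding, which was not measured in these libraries.

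The next sequence shows how close the transcripts of KDM5A and KDM5C come to each other. It is the longest run of bases that the transcripts of these 2 genes share in GENCODE release 29 (GRCh38).
KDM5A and KDM5C: attgaggatcactggagtta
The run, of 20 bases, lies at chr12:334262-334281 and chrX:53210697-53210716 and is part of protein-coding transcripts of both genes. It does not stand for the other pairs of paralogs. No run of 50 bases was shared by any pair of the 3 genes. Whether plasmid KDM5A RNA was in part counted as a paralog was not tested. The read length and the strand setting of the counting are not given in the sources used here.

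The deposited values are log2(FPKM + 1), with linear values that summed to 999975 to 1000008 per library, so read depth is unknown. Levels below are linear FPKM divided by a scaling factor per library (0.844 to 1.11), called scaled FPKM, and fold changes are log2 differences of scaled FPKM + 1. A value of 1 or more was given to 15509 to 16272 symbols per library. The make-up of 3 libraries (both with mutant KDM5A, and parental library 2) differed from that of the other 7: ribosomal protein genes took 15.5% to 16.2% of their totals, against 12.6% to 13.9%, and protein-coding genes 88.1% to 88.8%, against 90.2% to 90.7%. Of 10 colorectal epithelial markers 5 were at 1 or above in every library, among them EPCAM (271 to 389 scaled FPKM) and KRT8 (1457 to 2298), whereas CDX1, VIL1 and LGR5 stayed below 1 in all 10. Of the markers of other cells, 1 of 5 leukocyte markers (CD68) and 1 of 5 endothelial and stromal markers (COL1A1) reached 1 in every library, and the summed levels of the 3 lists were 2692 to 4068, 8.06 to 21.5 and 14.84 to 28.97 scaled FPKM.

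KDM5A (chromosome 12, 280129 to 389454, minus strand, GRCh38) was the most abundant symbol of the whole table in each of the 5 libraries with a KDM5A plasmid. It stood at 23346 and 22816 scaled FPKM with the mutant plasmid, at 13452, 16237 and 15598 with the wild-type plasmid, at 12.2, 15.3 and 12.3 with empty vector in cells labelled KDM5A-/-, and at 13.3 and 17.7 in parental cells. The plasmid groups lay above all other libraries and did not overlap each other, whereas the empty-vector knockout and parental libraries overlapped. The means were 23081 ± 375 (SD, n = 2) with mutant KDM5A, 15096 ± 1458 (SD, n = 3) with wild-type KDM5A, 13.3 ± 1.78 (SD, n = 3) with empty vector and 15.5 ± 3.09 (SD, n = 2) in parental cells. KDM5A RNA took 1.38% to 1.99% of the library totals with a plasmid and 0.00131% to 0.00170% without. FPKM divides by the length of the gene model, and the length of the plasmid transcript is not known, so the level of plasmid RNA per length may differ from these values.

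Relative to empty vector, KDM5A was 1736-fold higher with the mutant plasmid (log2 fold change 10.66, SE 0.13, adjusted p = 7.32e-10) and 1136-fold higher with the wild-type plasmid (log2 fold change 10.05, SE 0.12, adjusted p = 4.59e-10). All adjusted p-values of fold changes come from limma with Benjamini-Hochberg adjustment over 17779 genes, with 0.05 as the threshold. With the mutant plasmid KDM5A stood 1.53 times as high as with the wild-type plasmid, a difference that missed the threshold (log2 fold change 0.62, SE 0.13, adjusted p = 0.0926). Without parental library 1, and likewise without parental library 2, the adjusted p of this difference was 0.0214 at the same fold change of 0.62. Neither parental library is part of this comparison, and without either of them 970 genes passed between the plasmids, against 10 with all libraries. With any other library left out the KDM5A difference missed the threshold (adjusted p 0.11 to 0.212). By gene-level value, empty-vector libraries labelled KDM5A-/- were not distinguishable from parental ones: the log2 fold change of empty-vector knockout over parental cells was -0.20 (95% interval -0.50 to 0.10, adjusted p = 0.391). A value over the whole gene can also count RNA of a disrupted locus, so it checks the plasmid labels and does not check the knockout.

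**Figure D1:**
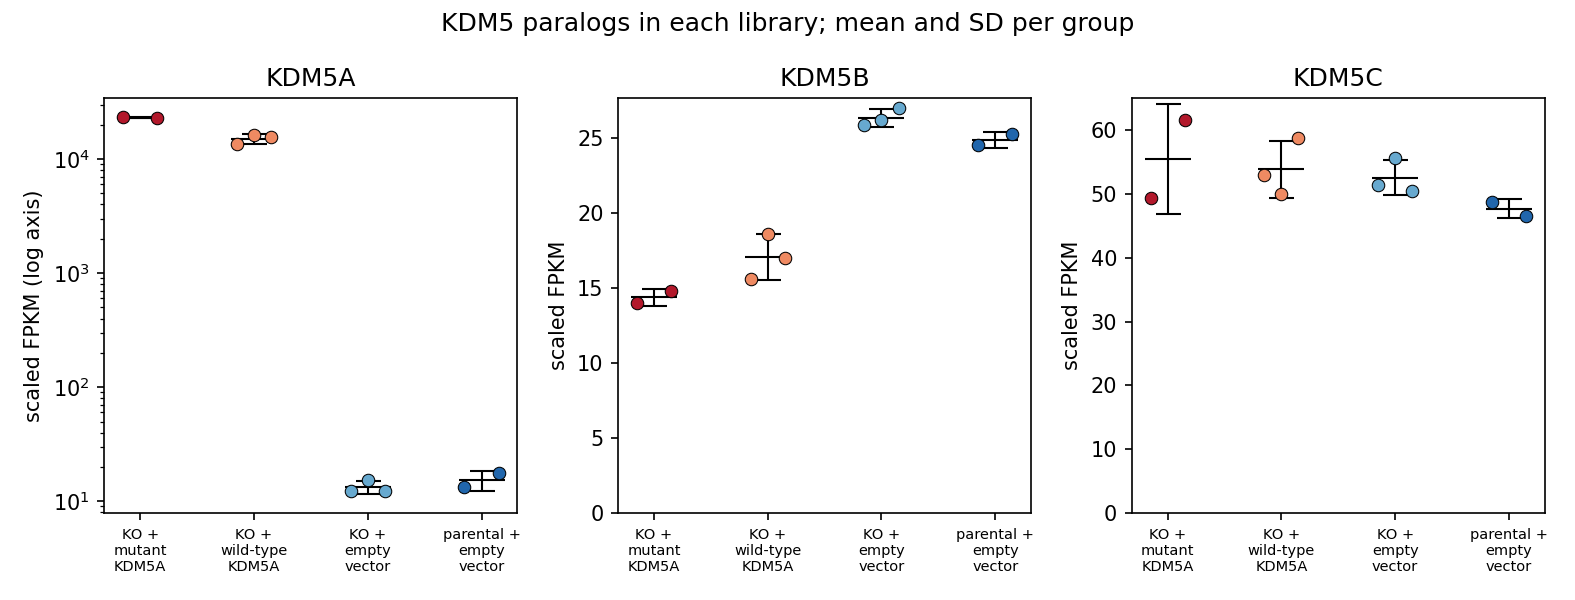
Scaled FPKM of KDM5A (log axis), KDM5B and KDM5C (axes from 0) in each of the 10 libraries, 1 point per library, with the mean and SD of each group. KDM5A is at 13452 or more with either plasmid and at 17.7 or less without, KDM5B is lowest with the mutant plasmid, and KDM5C libraries lie between 46.6 and 61.6.

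KDM5B (chromosome 1, 202724495 to 202809470, minus strand, GRCh38) fell with both KDM5A plasmids. As deposited, its log2(FPKM + 1) was 3.678 and 3.794 with mutant KDM5A, 4.084, 4.278 and 4.166 with wild-type KDM5A, 4.837, 4.908 and 4.917 with empty vector, and 4.792 and 4.662 in parental cells. In scaled FPKM it was 13.98 and 14.8 with the mutant, 15.6, 18.6 and 17.01 with the wild type, 25.8, 26.2 and 27.0 with empty vector, and 24.5 and 25.2 in parental cells. The libraries of no pair of groups overlapped, and every library with a KDM5A plasmid lay below every library without one. Groups this small can lie apart without a called difference, as empty-vector knockout and parental libraries did here (adjusted p = 0.597). The share of all genes tested whose groups lie apart was not counted, here or for the other paralogs. The means were 14.4 ± 0.559 (SD, n = 2) with mutant KDM5A, 17.1 ± 1.52 (SD, n = 3) with wild-type KDM5A, 26.3 ± 0.597 (SD, n = 3) with empty vector and 24.9 ± 0.518 (SD, n = 2) in parental cells. In these bulk samples, fewer cells of a kind and less RNA per cell cannot be told apart.

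With mutant KDM5A the mean KDM5B level fell by 45.4% relative to empty vector (log2 fold change -0.83, SE 0.08, 95% interval -1.02 to -0.64, adjusted p = 0.00116). With wild-type KDM5A it fell by 35.2% (log2 fold change -0.60, SE 0.07, 95% interval -0.77 to -0.43, adjusted p = 0.0048). KDM5B ranked 48th by p among the 17779 genes for the mutant and 68th for the wild type, and these comparisons share the empty-vector libraries. KDM5A, the gene on the plasmids, passed in each as higher, which the design fixes. Of the 2 other paralogs KDM5B passed as lower and KDM5C did not pass. Of all genes tested 16.5% passed for the mutant and 4.54% for the wild type. KDM5B also passed relative to parental cells, where 19.6% (mutant) and 14.5% (wild type) of all genes passed: the log2 fold change was -0.75 with the mutant (adjusted p = 0.00113) and -0.52 with the wild type (adjusted p = 0.0044).

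The mean KDM5B level with mutant KDM5A was 0.843 of that with wild-type KDM5A, which missed the threshold (log2 fold change -0.23, SE 0.08, 95% interval -0.41 to -0.04, unadjusted p = 0.0209, adjusted p = 0.172). Only 0.0562% of all genes passed in that comparison. Empty-vector knockout and parental cells differed by 0.08 on the log2 scale (SE 0.08, 95% interval -0.11 to 0.27, adjusted p = 0.597), where 8.94% of all genes passed and none of the 3 paralogs did.

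The high ribosomal protein share moved with the mutant label, since both mutant libraries and no other KDM5A-/- library had it. With that share as a covariate the log2 fold change of KDM5B with mutant KDM5A was -0.95 (adjusted p = 0.138), and 15 genes in all passed in that fit against 2939 without the covariate. The wild-type comparison sets none of those libraries against empty vector, and without both mutant libraries and parental library 2, KDM5B changed by -0.60 with wild-type KDM5A (adjusted p = 0.00906). With each of the 10 libraries left out in turn, the log2 fold change of KDM5B stayed between -0.87 and -0.79 for the mutant (highest adjusted p = 0.0113) and between -0.66 and -0.54 for the wild type (highest adjusted p = 0.0317).

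KDM5C (chromosome X, 53191321 to 53225422, minus strand, GRCh38) passed in none of the 6 comparisons. It was at 49.4 and 61.6 scaled FPKM with mutant KDM5A, at 52.9, 49.9 and 58.7 with wild-type KDM5A, at 51.4, 55.6 and 50.4 with empty vector, and at 48.7 and 46.6 in parental cells. In scaled FPKM the 3 groups of KDM5A-/- cells overlapped one another and lay above both parental libraries. On the values as deposited, both plasmid groups overlapped the parental libraries, and mutant and empty-vector knockout libraries did not overlap. The means in scaled FPKM were 55.5 ± 8.62 (SD, n = 2) with mutant KDM5A, 53.9 ± 4.48 (SD, n = 3) with wild-type KDM5A, 52.5 ± 2.76 (SD, n = 3) with empty vector and 47.6 ± 1.48 (SD, n = 2) in parental cells.

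Relative to empty vector, the log2 fold change of KDM5C was 0.07 with the mutant (SE 0.10, 95% interval -0.16 to 0.30, adjusted p = 0.673) and 0.03 with the wild type (SE 0.09, 95% interval -0.17 to 0.24, adjusted p = 0.884). These intervals leave room for a change of up to 0.30, and they do not reach the fall seen for KDM5B. On the values as deposited the fold changes of KDM5C took the other sign, -0.26 with the mutant and -0.08 with the wild type, where the median of all genes tested was itself shifted by -0.30 and -0.10. Relative to that median KDM5C stood at 0.03 and 0.02, and KDM5B at -0.85 and -0.61. Between empty-vector knockout and parental cells the log2 fold change of KDM5C was 0.14 (95% interval -0.09 to 0.37, adjusted p = 0.444), between mutant-plasmid and parental cells 0.21 (adjusted p = 0.225) and between wild-type-plasmid and parental cells 0.17 (adjusted p = 0.298).

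**Figure D2:**
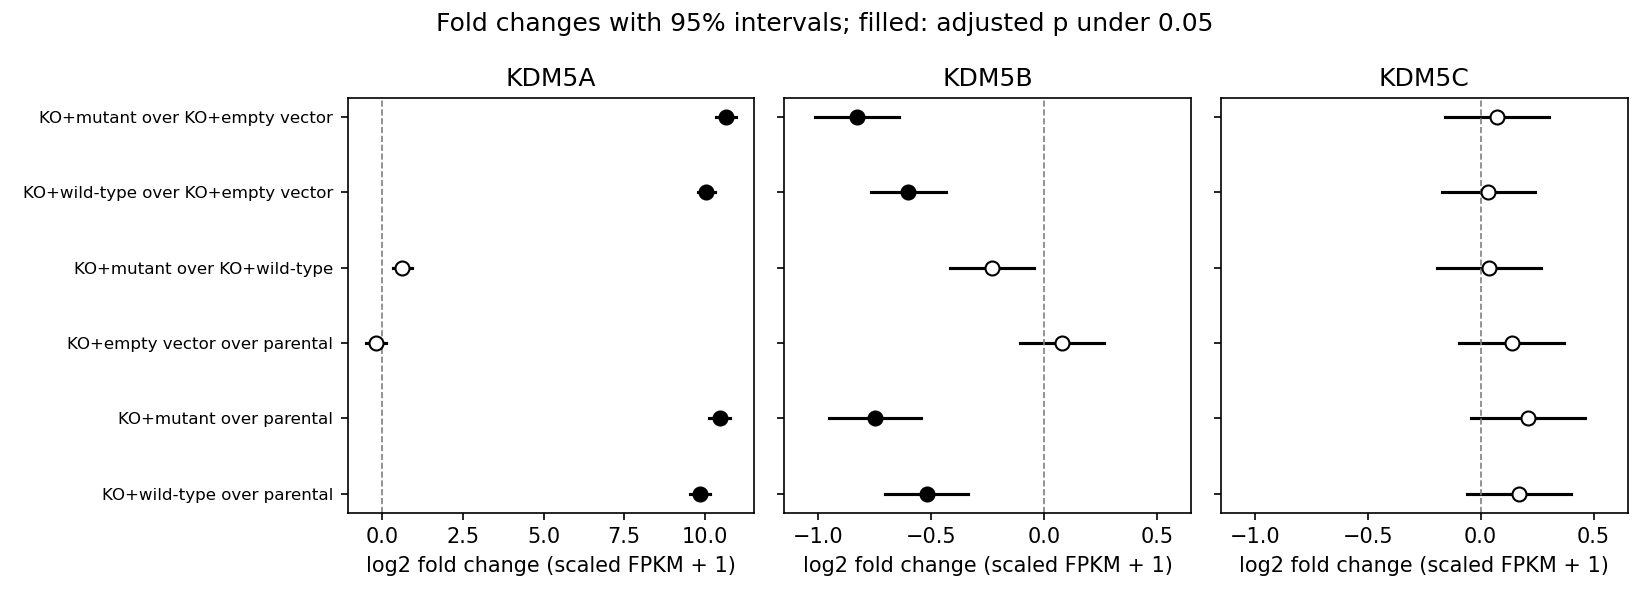
Log2 fold change of scaled FPKM + 1 with its 95% interval for KDM5A, KDM5B and KDM5C in the 6 comparisons of groups. Filled points passed an adjusted p of 0.05: KDM5A is near 10 in the 4 comparisons of a plasmid group with cells lacking one, KDM5B is between -0.83 and -0.52 in the same 4, and no KDM5C point is filled.

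The fourth gene of the family, the Y-linked KDM5D, was listed at 0 in 9 of the 10 libraries and did not pass the filter, and the intronic transcript KDM5C-IT1 was listed at 0 in all 10. In FPKM, which is per length, the order without a plasmid was KDM5C, then KDM5B, then KDM5A in all 5 libraries, and no levels of neighbouring genes in that order overlapped. KDM5C made up 56.2% to 57.5% of the summed FPKM of the 3 genes with empty vector in KDM5A-/- cells, KDM5B 26.9% to 30.1% and KDM5A 13.7% to 15.8%. With either plasmid KDM5A made up 99.5% to 99.7% of that sum and KDM5C remained above KDM5B in all 5 libraries.

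A ratio within a library does not depend on how libraries are scaled. KDM5C stood at 3.53 and 4.17 times the KDM5B level with mutant KDM5A, at 3.40, 2.68 and 3.45 times with wild-type KDM5A, at 1.99, 2.13 and 1.87 times with empty vector, and at 1.99 and 1.85 times in parental cells. All 5 libraries with a KDM5A plasmid lay above all 5 without one. The log2 ratio of KDM5B to KDM5C averaged -1.77 ± 0.227 (SD, n = 5) with a KDM5A plasmid and -0.994 ± 0.0927 (SD, n = 3) with empty vector in KDM5A-/- cells. The difference was -0.777 (two-sided exact permutation test, p = 0.0357, the smallest p that 5 against 3 libraries allow). The 5 libraries pool 2 conditions, mutant (mean log2 ratio -1.94, n = 2) and wild type (-1.66, n = 3), and are not replicates of 1. The KDM5B values already separated these libraries, so this p is no separate evidence. With 1 library fewer the smallest p that can be reached is above 0.05, and with only the wild-type libraries against empty vector the difference was -0.66 (exact permutation p = 0.1, the smallest possible). The summed level of KDM5B and KDM5C was 63.4 and 76.3 scaled FPKM with the mutant, 68.5, 68.5 and 75.7 with the wild type, 77.2, 81.8 and 77.4 with empty vector and 73.2 and 71.8 in parental cells.

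**Figure D3:**
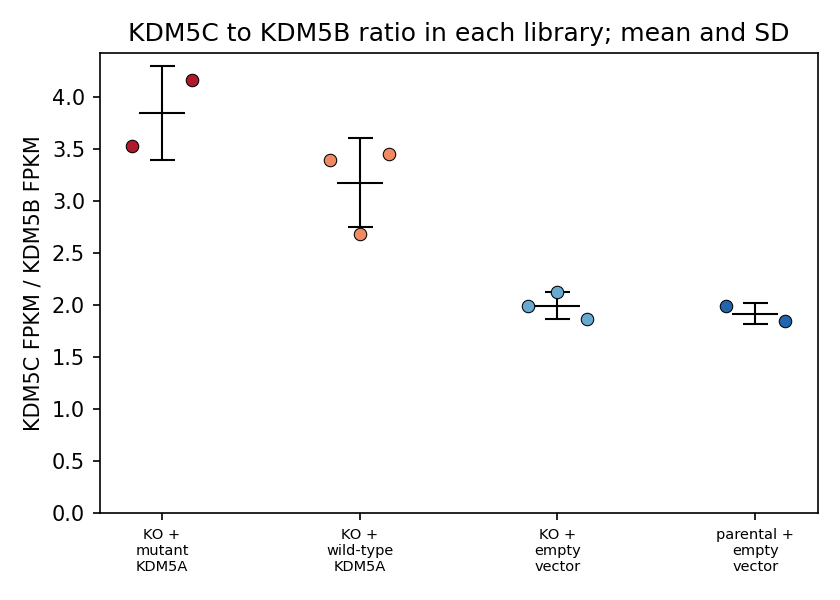
KDM5C FPKM divided by KDM5B FPKM in each library, with the mean and SD of each group, on an axis from 0. The 5 libraries with a KDM5A plasmid lie between 2.68 and 4.17 and the 5 without between 1.85 and 2.13.

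Of the loci within 50 kb of KDM5A, KDM5B or KDM5C, 3 around each passed the filter. None of these 9 passed the test between either plasmid and empty vector, between the plasmids, or between empty-vector knockout and parental cells. Of all genes tested, 16.5% (mutant) and 4.54% (wild type) passed against empty vector, and 0.0562% between the plasmids. Between empty-vector knockout and parental cells 8.94% passed. By these shares, finding none among 9 loci does not set them apart from other genes. Relative to parental cells, RP11-258C19.7 near KDM5C was lower with the mutant (-0.79, adjusted p = 0.0328) and RP11-283I3.6 near KDM5A with the wild type (-0.51, adjusted p = 0.0488). Of all genes, 19.6% passed relative to parental cells with the mutant and 14.5% with the wild type. PCAT6 is a long noncoding RNA gene whose locus begins 1483 bases from the end of the KDM5B locus, not from the RefSeq start used above. It had a log2 fold change of -0.24 with the mutant (adjusted p = 0.543) and -0.13 with the wild type (adjusted p = 0.794). CCDC77, whose locus overlaps that of KDM5A by 182 bases, had a log2 fold change of -0.13 with the mutant plasmid (adjusted p = 0.731) and -0.44 with the wild-type plasmid (adjusted p = 0.262), where KDM5A itself stood above 10 on that scale. RP11-480I12.2, a locus of 190 bases inside KDM5B, was at 0 and 30.2 scaled FPKM with the mutant, between 0 and 32.8 with the wild type, between 41.7 and 64.8 with empty vector, and listed at 0 in both parental libraries. It did not pass in these comparisons (adjusted p = 0.19 for the mutant, 0.347 for the wild type and 0.0575 between empty-vector knockout and parental cells), and without a known strand setting its reads cannot be told apart from those of KDM5B.

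The genes whose course over the 10 libraries was most like that of KDM5B were found by the root mean square difference of log2 values, each gene centred on its own mean, over 11607 genes with a mean of at least 5. The nearest was NR1D1, a nuclear receptor and repressor of the circadian clock, with a difference of 0.0654 where KDM5B itself varied by 0.346. NR1D1 averaged 85.2 ± 0.233 scaled FPKM with mutant KDM5A (SD, n = 2), 97.9 ± 1.66 with wild-type KDM5A (SD, n = 3), 153 ± 2.78 with empty vector (SD, n = 3) and 143 ± 6.86 in parental cells (SD, n = 2). Next came the zinc finger gene ZNF629 (0.0966), MAGEF1 (0.0986), LCAT, which esterifies cholesterol in lipoproteins (0.104), and NR1D2, the paralog of NR1D1 (0.109). The means of all 5 were lowest with mutant KDM5A, next lowest with wild-type KDM5A and higher in both empty-vector groups, a pattern they were chosen for. KDM5C varied by 0.118, and its nearest genes were NUBP1 (0.049), MANBAL (0.0626), SAP30 (0.063), BIN3 (0.0663) and C19orf43 (0.0666).

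**Figure D4:**
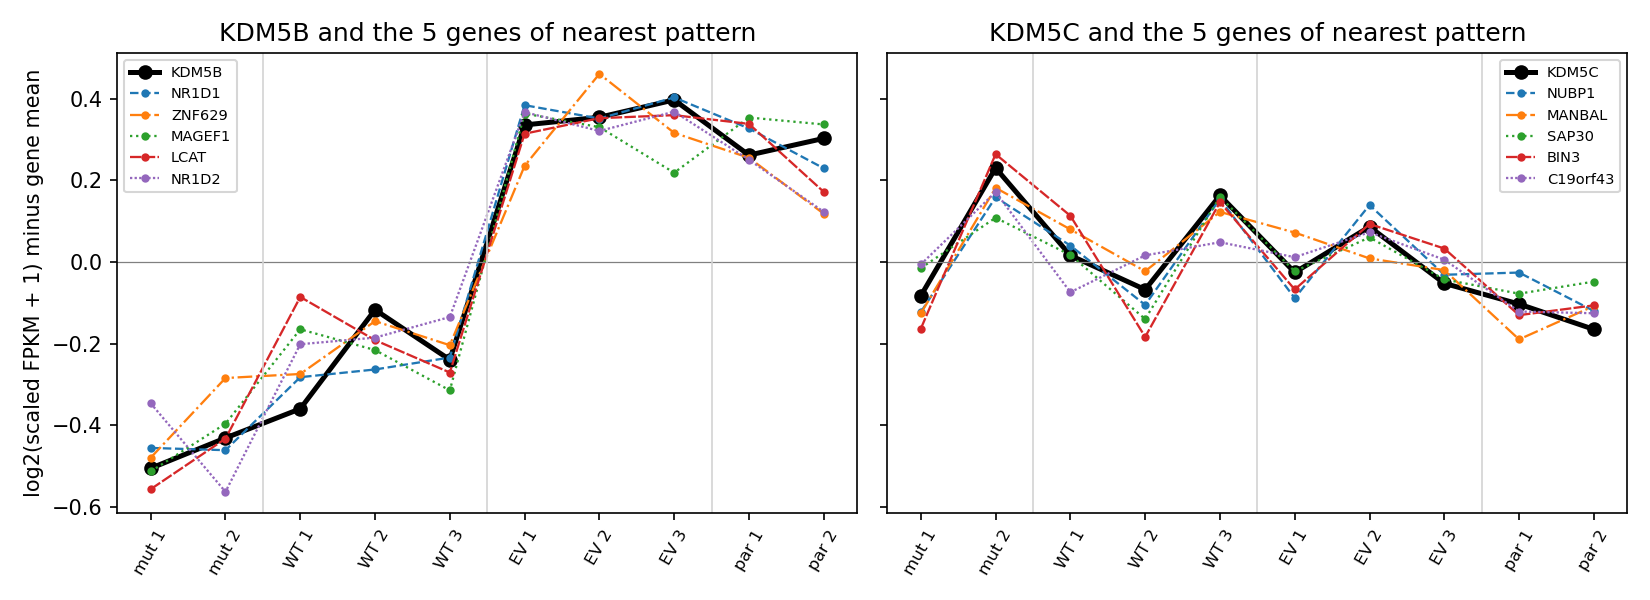
Log2(scaled FPKM + 1) minus the gene's own mean across the 10 libraries for KDM5B and for KDM5C (black), each with the 5 genes of nearest pattern. The KDM5B set is below its mean in the 5 libraries with a KDM5A plasmid and above it in the 5 without, as chosen, while KDM5C shows no such step.

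Genes that act with or beside the KDM5 proteins were described from 4 lists. The name of a list does not mean that every member has that enzyme activity. Among 22 tested genes on the list of other histone demethylases, 3 were lower and none higher with mutant KDM5A (7.05% of all genes were lower and 9.48% higher). With wild-type KDM5A 2 of them were lower (2.02% of all genes were lower and 2.52% higher). The median log2 fold change of the list was -0.165 with the mutant, beside -0.007 over all genes, and -0.005 with the wild type, beside 0.001. KDM6A, an H3K27 demethylase, averaged 15.1 ± 1.69 scaled FPKM with the mutant (n = 2), 18.4 ± 2.43 with the wild type (n = 3), 25.6 ± 0.428 with empty vector (n = 3) and 17.1 ± 0.0883 in parental cells (n = 2). Its log2 fold change was -0.73 with the mutant (SE 0.11, adjusted p = 0.00607) and -0.46 with the wild type (SE 0.10, adjusted p = 0.037). JMJD1C, a Jumonji protein of the KDM3 family, averaged 26.3 ± 5.15 with the mutant, 36.9 ± 2.71 with the wild type, 51.9 ± 5.64 with empty vector and 25.8 ± 0.169 in parental cells, with a log2 fold change of -0.96 for the mutant (adjusted p = 0.00358) and -0.48 for the wild type (adjusted p = 0.0483). Both also differed between empty-vector knockout and parental cells, by 0.56 for KDM6A (adjusted p = 0.0178) and 0.98 for JMJD1C (adjusted p = 0.00273). That KDM6A call was lost without any 1 of the empty-vector knockout libraries or parental library 2 (highest adjusted p = 0.0856). With the ribosomal protein share as a covariate, the adjusted p was 0.26 for KDM6A and 0.0975 for JMJD1C.

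Of 24 genes on the list of H3K4 methyltransferases and core subunits, 3 were lower and 1 higher with the mutant. With the wild type 1 was lower and 1 higher. Over all genes 7.05% were lower and 9.48% higher with the mutant, and 2.02% lower and 2.52% higher with the wild type. The median log2 fold change was -0.082 with the mutant and 0.002 with the wild type. KMT2E, a SET-domain protein of the trithorax group, averaged 16.7 ± 0.673 scaled FPKM with the mutant (n = 2), 22.03 ± 1.06 with the wild type (n = 3), 30.8 ± 1.91 with empty vector (n = 3) and 24.04 ± 1.31 in parental cells (n = 2). It fell by 0.85 on the log2 scale with the mutant (adjusted p = 0.000831) and by 0.47 with the wild type (adjusted p = 0.0108). CXXC1, which guides SET1 complexes to CpG islands, rose by 0.33 with each plasmid (adjusted p = 0.0191 for the mutant and 0.0308 for the wild type).

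Of 32 members of complexes in which KDM5 proteins are found, 6 were higher and 6 lower with the mutant, and 1 was higher and 2 lower with the wild type. Of all genes 9.48% were higher and 7.05% lower with the mutant, and 2.52% higher and 2.02% lower with the wild type. The median log2 fold changes were 0.05 and 0.02. BRMS1, a SIN3 and histone deacetylase partner, rose by 0.44 with the mutant (adjusted p = 0.00705), GATAD1, a reader of methylated H3K4 found with KDM5A, fell by 0.47 (adjusted p = 0.00723) and the CoREST scaffold RCOR1 fell by 0.44 (adjusted p = 0.0125). Of 11 genes described as repressed by KDM5 proteins, only TMEM173 (STING) passed with the mutant, at -0.30 (adjusted p = 0.0352), and only CDKN1A, the cell cycle inhibitor p21, with the wild type, at 0.33 (adjusted p = 0.0354). Against empty vector the median log2 fold change of the 11 was -0.017 with the mutant and -0.002 with the wild type. Against parental cells it was 0.211 with the mutant and 0.183 with the wild type. Between empty-vector knockout and parental cells the median was 0.30, beside 0.00 over all genes. In that comparison 3 of the 11 were higher and none lower, against 4.84% and 4.09% of all genes. The other lists held calls there too. Of the 22 other demethylases 3 were higher and none lower (median -0.046), and of the 24 on the H3K4 list 3 were higher and 1 lower (median 0.110). Of the 32 partner complex members 2 were higher and 1 lower (median -0.008). Of the 3 calls among the 11 genes only that of CAV1 was kept in all 10 fits that each left out 1 library. MFN2 lost its call without empty-vector library 2 or 3 or parental library 2 (highest adjusted p = 0.115). BRD8 lost it without 7 of the 10 libraries (highest adjusted p = 0.109). With the ribosomal covariate the adjusted p of CAV1 was 0.108. CAV1, the caveolin gene, was the one of smallest p and averaged 317 ± 6.99 scaled FPKM in empty-vector knockout cells (n = 3) and 232 ± 2.61 in parental cells (n = 2), a log2 fold change of 0.45 (adjusted p = 0.00413).

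Of the 8 calls with wild-type KDM5A none was kept in all 10 fits that each left out 1 library. The adjusted p reached 0.153 for JMJD1C, 0.118 for KDM6A, 0.0571 for KMT2E, 0.116 for CXXC1 and 0.119 for CDKN1A. Those of KMT2E were lost without wild-type library 1, wild-type library 2 or empty-vector library 3, and those of KDM6A, CXXC1 and CDKN1A without any 1 of the 6 wild-type and empty-vector libraries. JMJD1C lost its call without any 1 of those 6 or either parental library. With mutant KDM5A most calls of the lists were also lost in at least 1 such fit. Kept in all 10 were 2 of 3 calls among the other demethylases and 1 of 4 on the H3K4 list. Of the partner complexes 3 of 12 were kept, and the 1 call among the genes described as repressed was lost. The calls kept were JMJD1C, KDM6A, KMT2E, GATAD1, BRMS1 and RCOR1. CXXC1 lost its call there without mutant library 2 or empty-vector library 2 (highest adjusted p = 0.0822), and TMEM173 without 6 of the 10 libraries (highest adjusted p = 0.158). None of the mutant calls named here held with the ribosomal protein share as a covariate. In that fit adjusted p was 0.289 for JMJD1C, 0.361 for KDM6A, 0.0989 for KMT2E and 0.413 for CXXC1 and GATAD1. It was 0.452 for BRMS1, 0.617 for RCOR1 and 0.548 for TMEM173. SMYD2 itself averaged 17.03 ± 1.29 scaled FPKM with the mutant (n = 2), 17.4 ± 1.48 with the wild type (n = 3), 14.98 ± 0.201 with empty vector (n = 3) and 17.9 ± 0.041 in parental cells (n = 2), with adjusted p = 0.206 for the mutant and 0.186 for the wild type against empty vector.

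**Figure D5:**
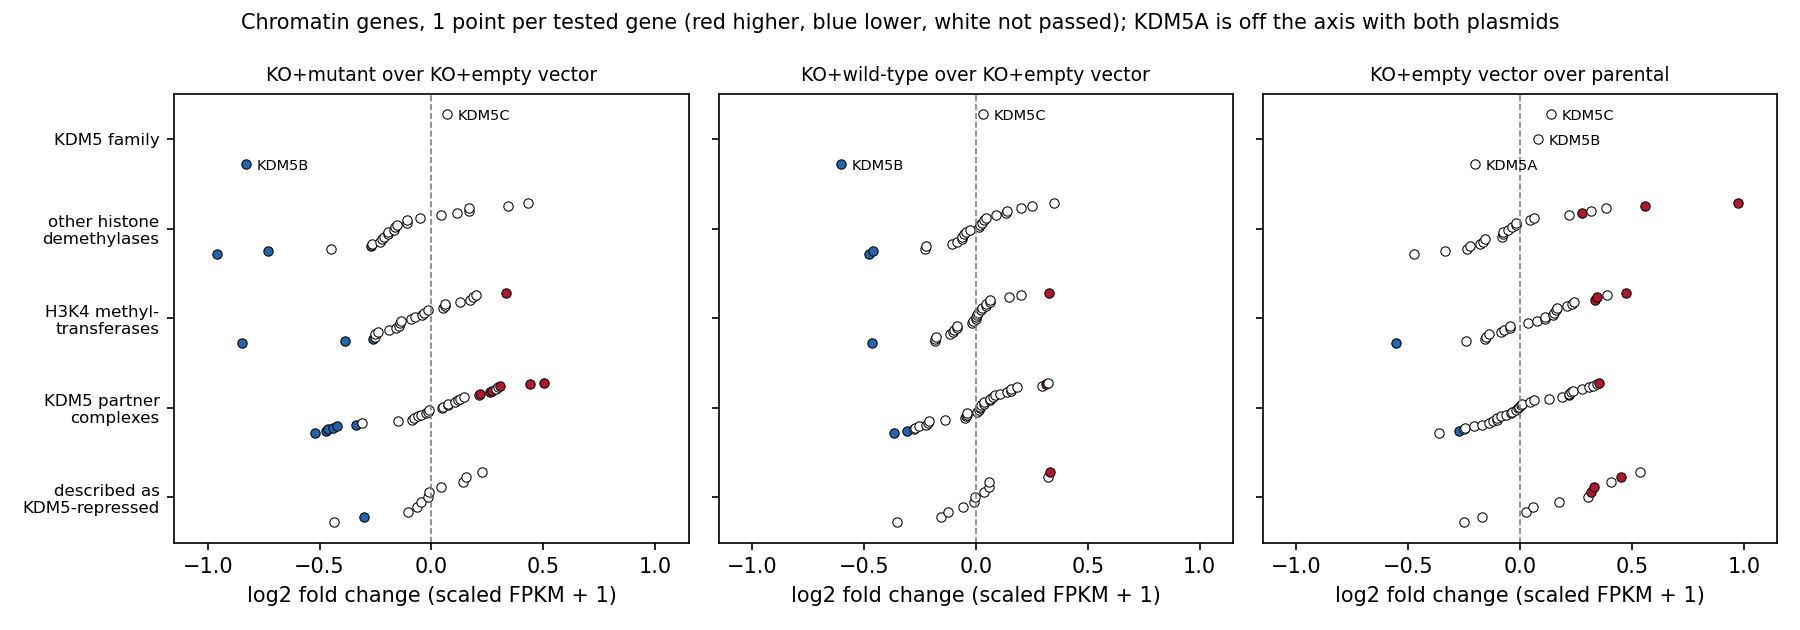
Log2 fold change of scaled FPKM + 1 for each tested gene of the KDM5 family and of the 4 lists, with mutant and with wild-type KDM5A against empty vector and between empty-vector knockout and parental cells (red passed and higher, blue passed and lower, white did not pass). KDM5A lies off the axis with both plasmids, and among the other demethylases the points that passed with a plasmid are all on the lower side.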

How the data were processed

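RNA of 10 libraries in 4 groups was taken as log2 FPKM tables, 1 per library, which the authors deposited for 60141 loci. The submitters' processing notes name GRCh38, Cufflinks 2.2.1, GATK 4.1.2, Picard and STAR 2.7.1a. Their order, the annotation and the strand setting are not given in the sources used here. The values are log2(FPKM + 1) to 3 decimals and sum to about the same linear total in every library, so depth, and the counting precision it gives, is unknown.

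Linear values were summed per symbol and divided by a library factor, the median over 13651 genes (1 or above in every library) of the ratio to each gene's geometric mean. The 17779 symbols that reached a scaled value of 1 in 2 or more libraries were tested with limma 3.58.1 (R 4.3.3; trend, two-sided) on log2(scaled value + 1). The fit took all 10 libraries (6 residual and 2.99 prior degrees of freedom), with Benjamini-Hochberg adjustment within each of 6 comparisons. A fold change on this scale understates that of low genes. The ratio of KDM5B to KDM5C was tested by exact permutation. Python 3.11.15 with numpy 2.4.6, pandas 2.3.3, scipy 1.17.1 and matplotlib 3.10.9 was used for the rest. The limma code was run on simulated data with independent noise, which checks the code and does not cover differences in library make-up. Promoters are RefSeq's, in which all 3 genes matched, and loci were placed with GENCODE release 29. The sequence that KDM5A and KDM5B share is not reported here.

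The members, gene lists, tests and alternatives were chosen with earlier results of these data known. Genes were named by rule: the 3 paralogs, loci beginning with KDM5, tested loci within 50 kb, the 5 nearest patterns of KDM5B and KDM5C, and from each list at most 5 members by p. Lists were the KDM5 family, other demethylases, H3K4 methyltransferases, partner complexes, genes described as repressed by KDM5 proteins, and markers of colorectal epithelium, leukocytes and stroma. SMYD2 is named for the title of the series. No 2 libraries of the same group held nearly identical values. Libraries of different groups were not compared in this way. The alternatives were other scalings, filters, pseudocounts, weights, covariates, blocks and subsets of libraries.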

Additional observations from a re-analysis of the deposited data

How the results depend on the processing

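KDM5B kept its direction in all 129 alternatives run over the 6 comparisons and its side of the threshold in 125. Its call was lost with the ribosomal protein share as a covariate for mutant KDM5A against empty vector (-0.95) and for wild-type KDM5A against parental cells (-0.45, adjusted p = 0.0907), and in a fit of only the libraries compared for mutant KDM5A against parental cells (-0.75, adjusted p = 0.138). On the values as deposited it passed between mutant and wild-type KDM5A (-0.44, adjusted p = 0.0402, median of all genes -0.19). For KDM5A, quantile normalization set the difference between mutant and wild type to 0, since KDM5A is the highest gene of all 5 libraries. With 1 library left out that difference was 0.54 to 0.67, and with the ribosomal covariate KDM5A was at 0.0562 between empty-vector knockout and parental cells (adjusted p = 0.934). KDM5C never passed and changed sign as deposited in mutant against empty vector (-0.26), wild type against empty vector (-0.0783), mutant against wild type (-0.19) and mutant against parental (-0.0455). With 1 library left out, KDM5C ranged from -0.0855 to 0.23, from -0.0286 to 0.0866 and from -0.12 to 0.19 in the first 3. The KDM5B to KDM5C log2 difference was -0.86 to -0.70 with 1 library left out, -0.66 with only wild-type and -0.95 with only mutant libraries, each at the smallest p its size allows (0.0571 to 0.2). The cause of these changes was not tested except where construction shows it.

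The labels do not say whether libraries of the same number are paired. Deviations of such libraries from their group means correlated at -0.0892 to 0.0509. Among wild-type and empty-vector libraries, 2 of 6 correlated best with their own number. In a group of 2 libraries the deviations mirror each other, and weak correlations cannot exclude a shared culture or batch, so pairing stays undecided. With the replicate number as a block, KDM5B was at -0.82 for the mutant (adjusted p = 0.0109) and -0.60 for the wild type (adjusted p = 0.0224), and the genes called were 1109 and 214 in place of 2939 and 807.

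Over all alternatives the genes called ranged from 15 to 6615 for mutant and from 178 to 2101 for wild-type KDM5A against empty vector, from 1 to 1496 between the plasmids and from 96 to 1904 between empty-vector knockout and parental cells. The highest count for the mutant is on the values as deposited, with 466 genes higher and 6149 lower, beside 1685 and 1254 after scaling and 888 and 1223 after quantile normalization. The cause was not tested. Groups of 2 and 3 libraries, 1 time point, an unnamed mutation and an unknown depth limit the precision.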
